A study of Mus musculus with 15 samples.

Results

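The 33 genes described here encode proteins that the liver secretes into the blood plasma, and their RNA was followed in extracellular vesicles (EVs) isolated from mouse blood. The genes were taken as a list of symbols out of the 43472 symbols counted in each library. The list was chosen with earlier results of these data known. They were ordered by role into 5 transport proteins (Alb, Ttr, Rbp4, Gc and Trf), 2 proteins that bind hemoglobin or heme (Hp and Hpx), 9 apolipoproteins, 7 genes of clotting, 7 genes of protease inhibitors and related proteins, and C3, Vtn and Mup3. Hepatocytes transcribe most of these genes at very high levels and release the proteins into the circulation, where they carry lipids, hormones, vitamins and metals, clot the blood and block proteases. RNA of such genes in blood is commonly read as a trace of the liver, but some of them are not made by hepatocytes alone. Apoe and C3 are also made by macrophages, and Rbp4, C3 and Apoe by adipocytes.

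The libraries came from 3 WT (C57BL/6), 6 dystrophic (Sgcb-null, lacking beta-sarcoglycan in every cell) and 6 hypertrophic samples. EVs of 2 to 3 animals, aged 3 to 6 months, were combined for every sample, and their RNA was amplified ahead of the library step. The sample labels give the hypertrophic mice as MAGIC F1 and the source as serum, while the study's methods give Mstn-null mice and plasma, so that libraries were compared by condition only. Libraries are named here by condition and a number that pairs nothing, and no label says whether a mouse contributed to more than 1 sample. For Sgcb-null mice and each hypertrophic strain, the study's methods name fewer animals bled than 6 separate pools of 2 to 3 would need. The 6 libraries of each of these conditions may therefore share mice and may not be independent.

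The label EV was checked against 7 genes of EV markers. Cd9 had counts in all 15 libraries and Sdcbp in 14, while Cd63, Cd81, Tsg101, Pdcd6ip and Flot1 were counted in 8 to 13. Platelet genes (Pf4, Ppbp and Gp9) and hemoglobin genes were also counted in all 15. Reads counted on genes, the depth used here, ranged from 27227 to 32563362 per library, and genes with at least 1 count from 797 to 8968. Levels are given as CPM, the count of a gene scaled to the reads counted on genes in its library. A count of 0 still allows up to 3 counts, which is 110 CPM in WT library 1 and between 0.0921 and 9.13 CPM in the other 14 libraries. These limits, like the intervals given with counts, cover counting error only, because copies made by amplification are not independent molecules. Sgcb was at 0 in 14 libraries, those of WT mice included, so that a count of 0 did not check a label. It had 695 counts in hypertrophic library 3. For dystrophic libraries 4 to 6 and hypertrophic libraries 1 to 3, the number in the sample title is not the number of its counts, and the numbers are crossed between these conditions. Hypertrophic library 3 is one of them and would, with exchanged labels, be an Sgcb-null library with counts on Sgcb. Counts per gene symbol do not show which part of Sgcb was read, so these counts did not settle the labels. Results that rest on these 6 libraries are therefore also given with their labels exchanged or with the 6 libraries left out. The calls of an alternative test, DESeq2, are given for the labels as they stand only.

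RNA of the plasma protein genes was present in every library, but as a different small subset of the genes in each. Of the 33 genes, 24 had a count in at least 1 library and 9 had 0 counts in all 15 (Apoa4, Apob, Apoc3, Apoc4, Plg, Serpinc1, Serpina1b, Itih4 and Ambp). Only Apoe, C3, Alb, Apoc1 and Apoa2 were counted in 5 or more libraries, 15 genes were counted in 2 to 4, and Fgg, F2, Itih3 and Mup3 in 1 library each. These 5 are 20.8% of the 24 listed genes with a count and 15.2% of the 33, beside 37.8% of all 13281 genes with a count and 11.5% of all 43472 symbols. Of the 495 pairs of a listed gene and a library, 88 (17.8%) had counts. The pairs with counts numbered 13 of 99 in WT-derived, 26 of 198 in dystrophic-derived and 49 of 198 in hypertrophic-derived libraries. With the crossed labels exchanged the latter 2 numbers were 32 and 43 of 198, and with the 6 libraries left out 11 and 28 of 99. Where a gene was counted it was seldom at the limit of detection, with 10 or more counts in 73 of the 88 pairs. Another 13 pairs had 1 to 3 counts, 6 of them in WT library 3.

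**Figure D1:**
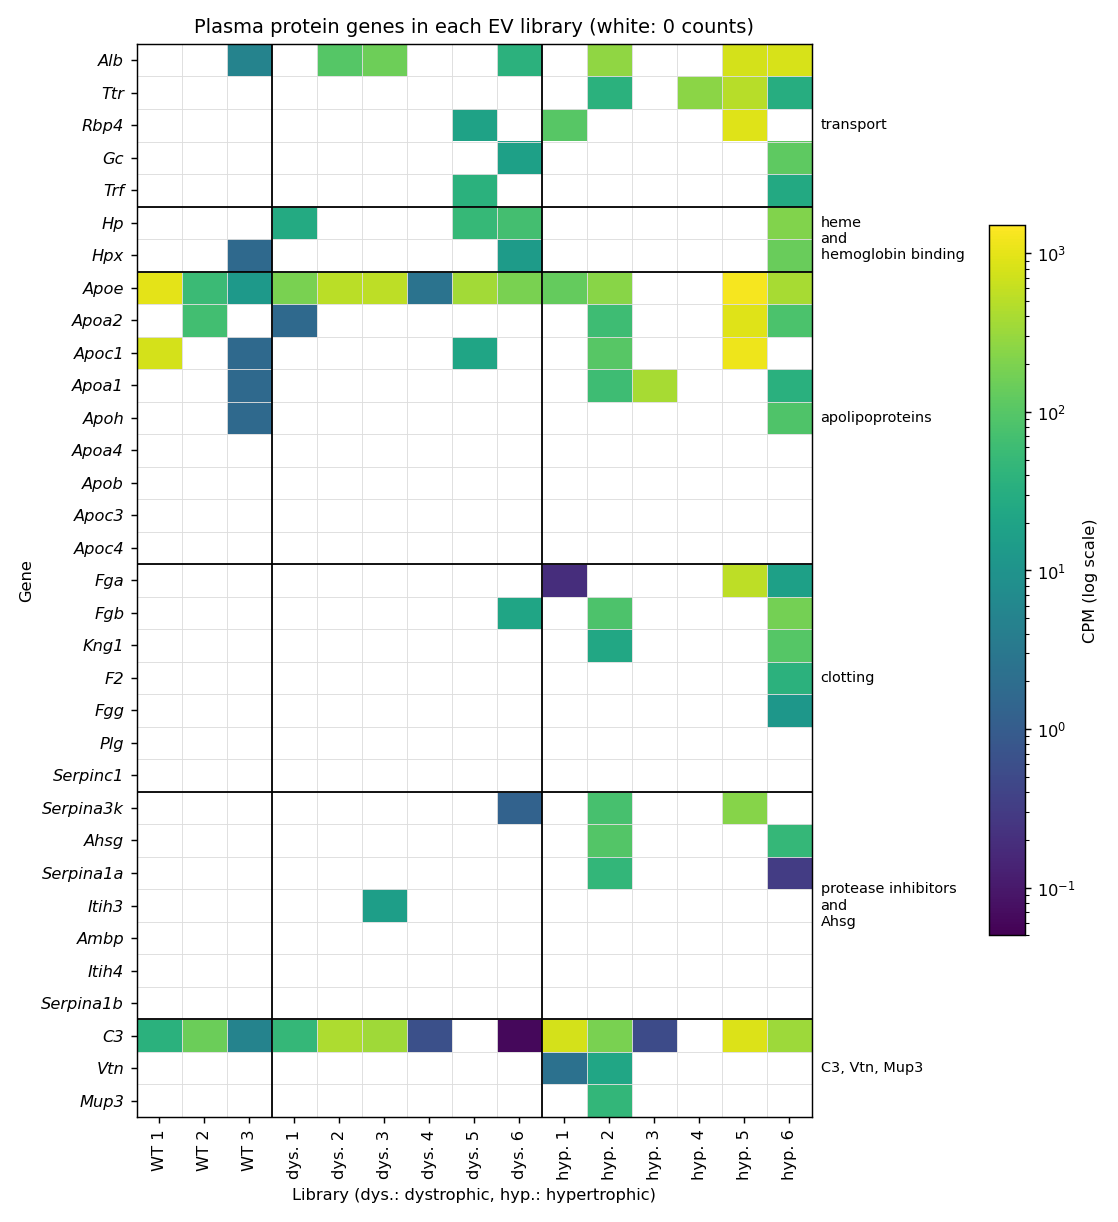
Level of each of the 33 genes (rows, grouped by role) in each of the 15 libraries (columns, by condition), as CPM on a logarithmic colour scale, with white for 0 counts. Apoe and C3 form the only nearly filled rows, hypertrophic libraries 2, 5 and 6 the fullest columns, and 9 rows are empty.

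The number of listed genes detected differed more between libraries of a condition than between conditions. WT-derived libraries held 3, 3 and 7 of them, dystrophic-derived libraries between 2 and 8 (median 4), and hypertrophic-derived libraries between 1 and 18 (median 7). The ranges overlapped fully, and hypertrophic-derived libraries held both the lowest and the highest number, also with the labels exchanged (medians 4 and 6.5 in dystrophic-derived and hypertrophic-derived libraries). Hypertrophic library 6 alone held 18 genes, and together with hypertrophic library 2 it held 22 of the 24 genes that were counted anywhere, Rbp4 and Itih3 being the exceptions. Adding hypertrophic library 5 left only Itih3 missing.

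Depth did not order these numbers. In the 5 deepest libraries, 3 listed genes were detected among 7738568 reads in WT library 2, 8 among 32563362 reads in dystrophic library 6, and 5, 14 and 18 among 5120128, 5800739 and 6461652 reads in hypertrophic libraries 1, 2 and 6. Hypertrophic library 5 had 328710 reads and held 9 of them, although only 814 genes were detected in it. When every library was thinned to the 27227 reads of the smallest, the expected number of listed genes was 13.4, 11.3 and 9.0 in hypertrophic libraries 6, 2 and 5, and between 0.0829 and 3.68 in the other 12 libraries. These 3 libraries also held a larger share of the listed genes than of all symbols. The shares were 54.5% and 13.1% in library 6, 42.4% and 12.2% in library 2, and 27.3% and 1.87% in library 5. That was also so in most other libraries, and was not particular to these 3. The shares were 9.09% and 1.83% in WT library 1 and 21.2% and 6.84% in WT library 3. The share of listed genes was the smaller one in WT library 2, dystrophic libraries 1 and 5 and hypertrophic library 4. In dystrophic library 6, which had the most genes, the shares were 24.2% and 20.6%. No test was run on these numbers, since they are sums over a chosen list.

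**Figure D2:**
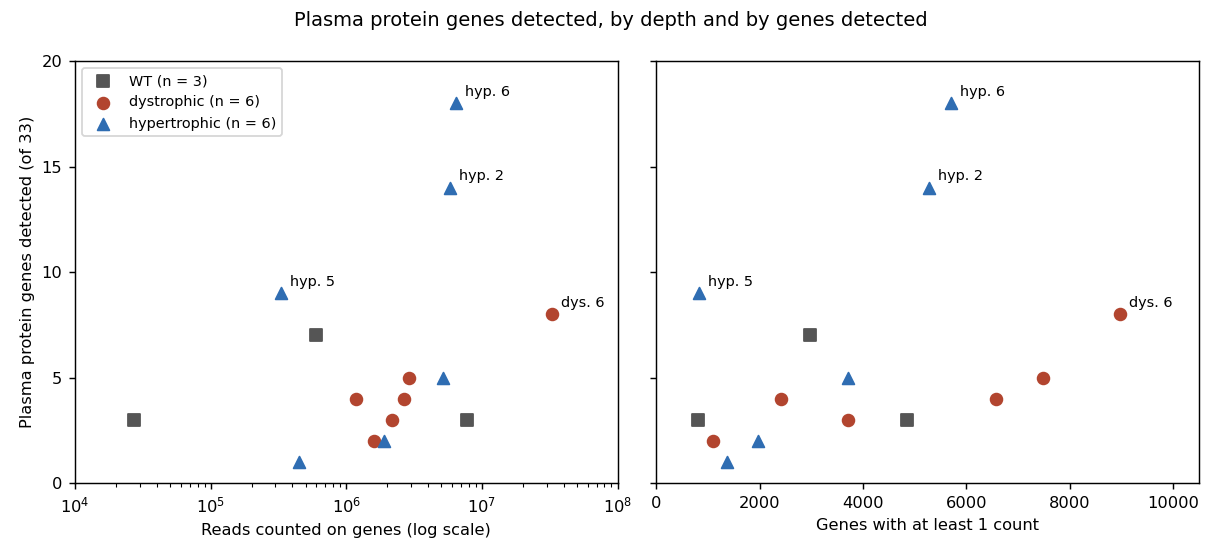
Number of the 33 genes detected in each library (vertical axis) against the reads counted on genes (left, logarithmic axis) and against all genes with at least 1 count (right); squares are WT-derived (n = 3), circles dystrophic-derived (n = 6) and triangles hypertrophic-derived libraries (n = 6). Hypertrophic libraries 2, 5 and 6 lie above the other libraries of similar depth.

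The summed level of the 33 genes was 1799.7, 272 and 29.9 CPM in the WT-derived libraries. In dystrophic-derived libraries it ranged from 3.11 to 1062 CPM (median 419) and in hypertrophic-derived libraries from 255 to 7207 CPM (median 1187). All 3 ranges overlapped. The value of WT library 1 rested on 49 counts (95% exact binomial interval 1332 to 2379 CPM). That of dystrophic library 4 rested on 5 counts (1.01 to 7.25 CPM). The 7207 CPM of hypertrophic library 5 rested on 2369 counts and equalled 0.721% of its reads. Apoe and C3 together made up between 54.1% and 100% of the counts on the 33 genes in each WT-derived and dystrophic-derived library, but 31.5% or less in 5 of the 6 hypertrophic-derived ones. Without them, the summed level was 771, 65.8 and 11.6 CPM in WT-derived, 0 to 172 CPM (median 113) in dystrophic-derived and 105 to 4992 CPM (median 662) in hypertrophic-derived libraries. These contrasts depended on the crossed libraries. With their labels exchanged, the order of the medians of all 33 genes turned, to 1025 CPM in dystrophic-derived and 419 CPM in hypertrophic-derived libraries. Apoe and C3 then made up between 0.133% and 90.5% of the counts in the former and between 0% and 100% in the latter, and the medians without them were 138 and 209 CPM. With the 6 libraries left out, the medians of all 33 genes were 1033 and 2627 CPM, those without Apoe and C3 97.8 and 1919 CPM, and the 2 genes made up 83.8% to 90.5% and 0% to 30.7% of the counts (3 libraries each).

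**Figure D3:**
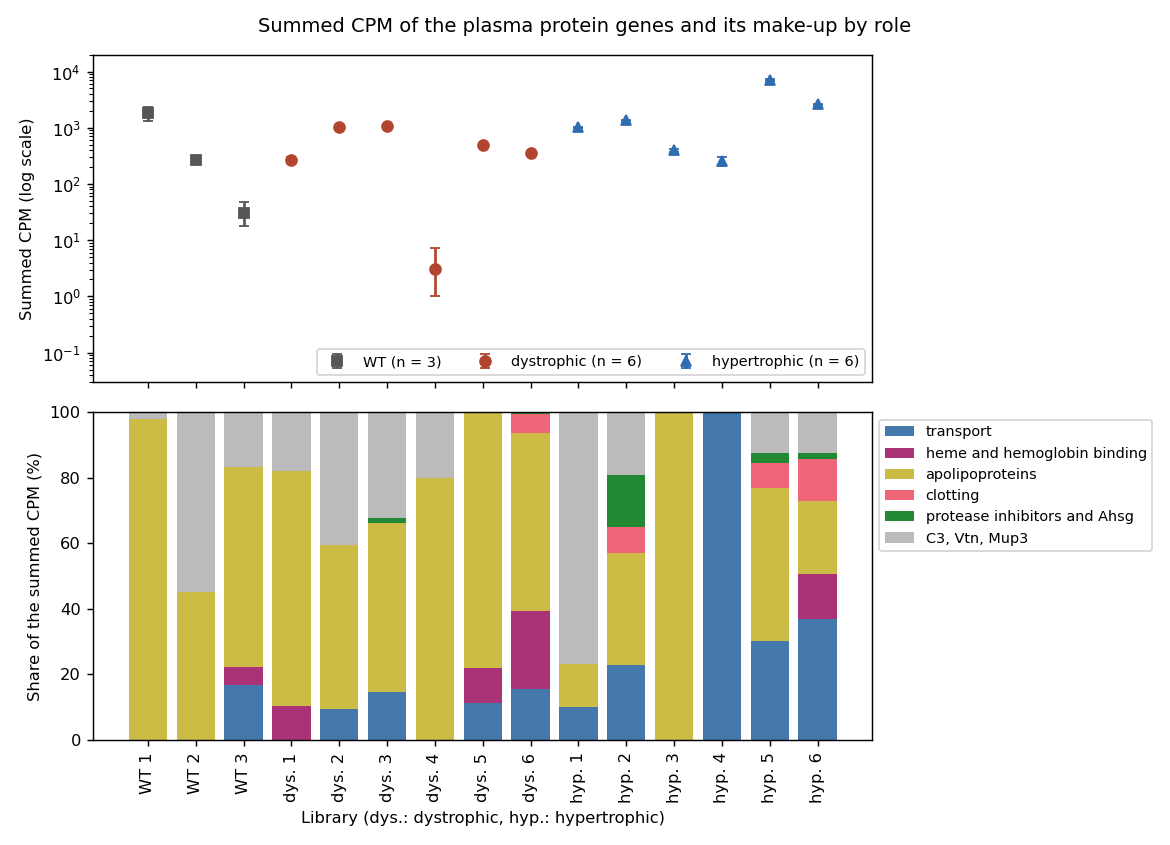
Upper panel: summed level of the 33 genes in each library, in CPM on a logarithmic axis, with 95% exact binomial intervals. Squares are WT-derived, circles dystrophic-derived and triangles hypertrophic-derived libraries. Lower panel: share of that sum held by each role, in percent; apolipoproteins filled most of it in most WT-derived and dystrophic-derived libraries, and 1 role filled nearly all of it in hypertrophic libraries 3 and 4.

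The library numbers fall into 2 series, and the within-series values were compared because the sources do not say what a series marks. By the numbers in the titles, the median summed level in the lower series was 272 CPM in WT-derived, 1033 CPM in dystrophic-derived and 1016 CPM in hypertrophic-derived libraries (3 each), the last pair of medians lying close together. In the upper series it was 355 CPM in 3 dystrophic-derived and 2627 CPM in 3 hypertrophic-derived libraries, with ranges of 3.11 to 483 and 255 to 7207 CPM. By the numbers of the counts, all 6 hypertrophic-derived libraries are in the upper series and the 9 others in the lower, so that series and condition cannot be told apart.

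Apoe, the lipoprotein ligand that clears remnant particles from plasma, was the most widely counted of the apolipoproteins. Its gene (ENSMUSG00000002985.16) lies on chromosome 7 from 19696109 to 19699188 of mm10. The level of Apoe was 992, 57.1 and 13.3 CPM in the WT-derived libraries, between 2.49 and 548 CPM (median 274) in dystrophic-derived ones and between 0 and 1326 CPM (median 185) in hypertrophic-derived ones. It was counted in 13 of 15 libraries, was at 0 in hypertrophic libraries 3 and 4, and the 3 conditions overlapped. The means were 354 ± 553 CPM (SD, n = 3), 301 ± 211 CPM (SD, n = 6) and 346 ± 502 CPM (SD, n = 6), in that order. By edgeR's quasi-likelihood test over all genes, its log2 fold change was 0.28 (standard error 1.96) for dystrophic against WT, 0.10 (1.95) for hypertrophic against WT and −0.18 (1.57) for hypertrophic against dystrophic, and the adjusted p-values lay between 0.9998 and 1.0. Each of these signs changed under another setting or without 1 library. After exchange of the crossed labels, the median of Apoe was 214 CPM in dystrophic-derived and 274 CPM in hypertrophic-derived libraries.

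Apoc1 and Apoa2 encode small proteins of lipoprotein particles, Apoc1 an inhibitor of lipase and remnant uptake and Apoa2 a major protein of high-density lipoprotein. Each was counted in 5 libraries, with 2 of them in common. Apoc1 was at 771, 0 and 1.66 CPM in the WT-derived libraries, from 21 counts, 0 counts and 1 count. It was at 0 in 5 of 6 dystrophic-derived libraries and at 21.5 CPM in the other, and in hypertrophic-derived libraries at 0 in 4, at 105 CPM in library 2 and at 1141 CPM in library 5. High values of Apoc1 therefore occurred in WT library 1 and in 2 hypertrophic-derived libraries, and all conditions overlapped at 0. Apoa2 was at 0, 65.8 and 0 CPM in the WT-derived libraries, reached 1.71 CPM (2 counts) in 1 dystrophic-derived library and 0 in the other 5, and ranged from 0 to 907 CPM (median 31.0) in hypertrophic-derived libraries. The lowest level of Apoa2 among the 3 hypertrophic-derived libraries that held it, 62.1 CPM, was above the highest dystrophic-derived value. The groups still overlapped at 0, where 5 dystrophic-derived and 3 hypertrophic-derived libraries stood. The 62.1 CPM belonged to hypertrophic library 2, a crossed library, and with exchanged labels it became the highest dystrophic-derived value of Apoa2, below the 79.7 and 907 CPM of the 2 hypertrophic-derived libraries that then held it. The 105 CPM of Apoc1 lay in the same library, so that the highest dystrophic-derived value of Apoc1 was then 105 CPM.

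Apoa1, the main protein of high-density lipoprotein, was counted in 4 libraries, with 1 count in WT library 3 and 61.0, 394 and 35.3 CPM in hypertrophic libraries 2, 3 and 6. In hypertrophic library 3 it supplied 751 of the 752 counts on the 33 genes. Against the mean limit of 1.34 CPM that counts of 0 allow in the dystrophic-derived libraries, its mean of 81.7 CPM in hypertrophic-derived libraries was at least 60.8-fold higher, but 3 of these 6 libraries were also at 0. Hypertrophic libraries 2 and 3 are crossed libraries, and with exchanged labels the direction of Apoa1 turned, with means of 75.8 CPM in dystrophic-derived and 5.88 CPM in hypertrophic-derived libraries. Without the 6 crossed libraries the bound was 6.96-fold. Apoh, a phospholipid-binding glycoprotein, was at 87.9 CPM in hypertrophic library 6 and had 1 count in WT library 3. Apob, the scaffold protein of very-low-density lipoprotein and of all the listed genes the one with the longest transcript (13934 bases), had no count in any library, and neither had Apoa4, Apoc3 and Apoc4.

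Neighbouring apolipoprotein genes were counted in different numbers of libraries. Apoc4, Apoc1 and Apoe lie within 21.1 kb of chromosome 7 (19678083 to 19699188), and were counted in 0, 5 and 13 libraries, Apoe being present in all 5 libraries with Apoc1. Apoa1, Apoc3 and Apoa4 lie within 14.9 kb of chromosome 9 (46228580 to 46243459), and only Apoa1 had counts. Of the Apoa4 transcript, only 39.1% of windows of 50 bases, the length of the reads, occur in no other gene. The zeros of Apoa4 may in part be reads that could not be assigned.

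Among the transport proteins, albumin (Alb), the most abundant protein of plasma and a carrier of fatty acids, was counted in 7 libraries. Its gene (ENSMUSG00000029368.10) lies on chromosome 5 from 90460897 to 90476602. Alb was at 0, 0 and 4.99 CPM (3 counts) in the WT-derived libraries, between 0 and 156 CPM (median 19.0) in dystrophic-derived and between 0 and 797 CPM (median 137) in hypertrophic-derived ones. Each of the latter conditions had 3 libraries with and 3 without Alb, and the 3 hypertrophic-derived libraries that held it, at 273, 776 and 797 CPM, were all above the highest dystrophic-derived value. The 273 CPM is that of the crossed hypertrophic library 2. With exchanged labels it was the highest dystrophic-derived value, and the lowest of the hypertrophic-derived libraries with Alb, at 38.1 CPM, lay below it. All 7 libraries with Alb also held Apoe and C3. By edgeR's quasi-likelihood test, Alb differed on the log2 scale by 3.92 (standard error 3.16, adjusted p = 0.588) for dystrophic against WT, 6.76 (3.63, adjusted p = 0.430) for hypertrophic against WT and 2.84 (2.14, adjusted p = 0.9998) for hypertrophic against dystrophic.

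Ttr, the carrier of thyroxine and of retinol-binding protein, was the member of the transport group whose counts were confined to hypertrophic-derived libraries. It was at 0 in all 3 WT-derived and all 6 dystrophic-derived libraries, and in hypertrophic libraries 1 to 6 at 0, 35.9, 0, 255, 499 and 31.1 CPM. The 4 libraries with Ttr held 115 to 208 counts each, and in hypertrophic library 4 these were all the counts on the 33 genes. Taking the limit that counts of 0 allow, its mean of 137 CPM in hypertrophic-derived libraries was at least 102-fold higher than in dystrophic-derived ones. Against WT the bound was 3.55-fold, because WT library 1 was shallow. With the crossed labels exchanged Ttr was no longer at 0 in dystrophic-derived libraries, since 1 of them held it at 35.9 CPM, and the means were 5.98 CPM there and 131 CPM in hypertrophic-derived libraries. With the 6 libraries left out, all 3 hypertrophic-derived libraries and none of the 3 dystrophic-derived ones held Ttr, and the bound was 155-fold. The fitted log2 fold change of 11.30 (standard error 3.81) for hypertrophic against dystrophic depends on how edgeR treats counts of 0. Its adjusted p was 0.123 by edgeR's quasi-likelihood test.

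Rbp4, the plasma carrier of retinol, was counted in 3 libraries. It had 525 counts in hypertrophic library 1, 296 in hypertrophic library 5, where it reached 900.5 CPM, and 54 in dystrophic library 5. Gc, the carrier of vitamin D, had 573 counts in dystrophic library 6 and 748 in hypertrophic library 6. Trf, the iron carrier transferrin, had 105 counts in dystrophic library 5 and 170 in hypertrophic library 6. Trf shares most of its transcript with another annotated gene, so that only 20.2% of its windows of 50 bases, the length of the reads, occur in no other gene, and its zeros may in part be reads that could not be assigned. Alb, Ttr, Rbp4 and Gc share no such window with another gene.

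Haptoglobin (Hp) and hemopexin (Hpx) bind the hemoglobin and the heme that lysed red cells release. Hp was the listed gene with counts in the most dystrophic-derived libraries after Apoe and C3, together with Alb. It was at 0 in all 3 WT-derived libraries, at 27.3, 50.9 and 70.3 CPM in dystrophic libraries 1, 5 and 6 and at 0 in the other 3, and at 217 CPM in hypertrophic library 6 and 0 in the other 5. Dystrophic libraries 5 and 6 are crossed, and with exchanged labels Hp was counted in 1 dystrophic-derived and 3 hypertrophic-derived libraries. Hpx was counted in 3 libraries, at 14.3 CPM in dystrophic library 6, at 142 CPM in hypertrophic library 6 and at 1.66 CPM (1 count) in WT library 3. The libraries with Hp and those without overlapped in their hemoglobin and red cell genes. The summed level of these genes was 86662, 67855 and 68510 CPM in the dystrophic-derived libraries with Hp and 39643 CPM in hypertrophic library 6. Over all 15 libraries it was 22933 to 155950 CPM. A link of Hp with these genes or with those of other cells was not tested.

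The clotting genes had few counts outside hypertrophic-derived libraries as these are labelled. None of the 7 had a count in a WT-derived library, Fgb alone had counts in a dystrophic-derived one (702 in library 6), and 5 were counted in hypertrophic-derived libraries. With the crossed labels exchanged, dystrophic-derived libraries held Fga (1 count), Fgb and Kng1 and hypertrophic-derived ones the same 5 genes, and with the 6 libraries left out hypertrophic-derived libraries held the 5 and dystrophic-derived ones none. Fibrinogen, the precursor of the fibrin clot, is built of the products of Fga, Fgb and Fgg, whose genes lie within 42.1 kb of chromosome 3 (83007724 to 83049863). The 3 chains were found together in hypertrophic library 6 only, with 113 counts for Fga, 1113 for Fgb and 75 for Fgg. Hypertrophic library 5 held Fga (176 counts, 535 CPM) without Fgb and Fgg, and hypertrophic library 2 and dystrophic library 6 held Fgb (484 and 702 counts) without Fga and Fgg. Prothrombin (F2) had 246 counts in hypertrophic library 6 and none elsewhere. Kng1, the kininogen from which bradykinin is cut, had 143 and 641 counts in hypertrophic libraries 2 and 6. Plasminogen (Plg) and antithrombin (Serpinc1) were at 0 throughout, although 58.8% of the 50-base windows of the Serpinc1 transcript also occur in the gene Zbtb37.

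Kng1 and Ahsg, the calcium-binding plasma protein fetuin-A, lie within 191 kb of chromosome 16 (22891277 to 23082078) and were counted in the same 2 libraries and in no other. They were the only listed neighbours of which that held, among 6 groups of listed genes with gaps of at most 250 kb. Ahsg had 544 and 311 counts in hypertrophic libraries 2 and 6. Of the protease inhibitors, Serpina3k had 441 counts in hypertrophic library 2, 77 in hypertrophic library 5 and 41 in dystrophic library 6. Itih3, a protein that binds hyaluronan in the extracellular matrix, had 43 counts in dystrophic library 3, and was the only listed gene with counts in dystrophic-derived libraries and in no other condition. Its neighbour Itih4, and Ambp, from which the light chain bikunin of this family is cut, were at 0.

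Serpina1a and Serpina1b encode forms of alpha-1-antitrypsin, the plasma inhibitor of neutrophil elastase, and belong to a family of near-identical genes on chromosome 12. Serpina1a had 266 counts in hypertrophic library 2 and 2 in hypertrophic library 6, and Serpina1b had none. Only 32.6% of the 50-base windows of Serpina1a and 64.2% of those of Serpina1b occur in no other gene, so the split of reads between them is uncertain. Over 1242 coding bases, Serpina1b was 97.0% and Serpina1c 98.5% identical to Serpina1a. The window of 50 coding bases in which Serpina1a differs at the most bases from both of the others is shown because it is where such reads are told apart best. It runs from base 1073 to 1122 of the reading frames in the GENCODE transcripts and codes for part of the reactive centre loop, which proteases cut. Capitals mark the positions at which the 3 genes differ.
Serpina1a: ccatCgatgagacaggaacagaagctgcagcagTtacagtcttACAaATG
Serpina1b: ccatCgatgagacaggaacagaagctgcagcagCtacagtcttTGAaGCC
Serpina1c: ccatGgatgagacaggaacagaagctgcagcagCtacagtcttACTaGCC
Serpina1b and Serpina1c each differ from Serpina1a at 6 of these bases. Of all coding windows of this length in Serpina1a, 38.0% occurred unchanged in Serpina1b and 71.2% in Serpina1c.

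C3, the central component of complement, was with Apoe the most widely counted of all 33 genes. Its gene (ENSMUSG00000024164.15) lies on chromosome 17 from 57203970 to 57228136. C3 was at 36.7, 149 and 4.99 CPM in the WT-derived libraries, of which the first rested on 1 count and the last on 3. It ranged from 0 to 419 CPM (median 24.2) in dystrophic-derived and from 0 to 888 CPM (median 258) in hypertrophic-derived libraries. Both of these conditions split, with 3 dystrophic-derived libraries between 47.8 and 419 CPM and 3 at 2 counts or fewer, and with 4 hypertrophic-derived libraries between 189 and 888 CPM and 2 at 1 count or 0. The medians of C3 turned, under exchange of the crossed labels, to 266 CPM in dystrophic-derived and 0.342 CPM in hypertrophic-derived libraries. The log2 fold change by edgeR's quasi-likelihood test was 0.46 (standard error 2.26, adjusted p = 1.0) for dystrophic against WT, 2.003 (2.45, adjusted p = 0.840) for hypertrophic against WT and 1.55 (1.85, adjusted p = 0.9998) for hypertrophic against dystrophic. Vtn, the adhesion protein vitronectin, had 12 and 129 counts in hypertrophic libraries 1 and 2. Mup3, a urinary protein that carries pheromones, had 269 counts in hypertrophic library 2.

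**Figure D4:**
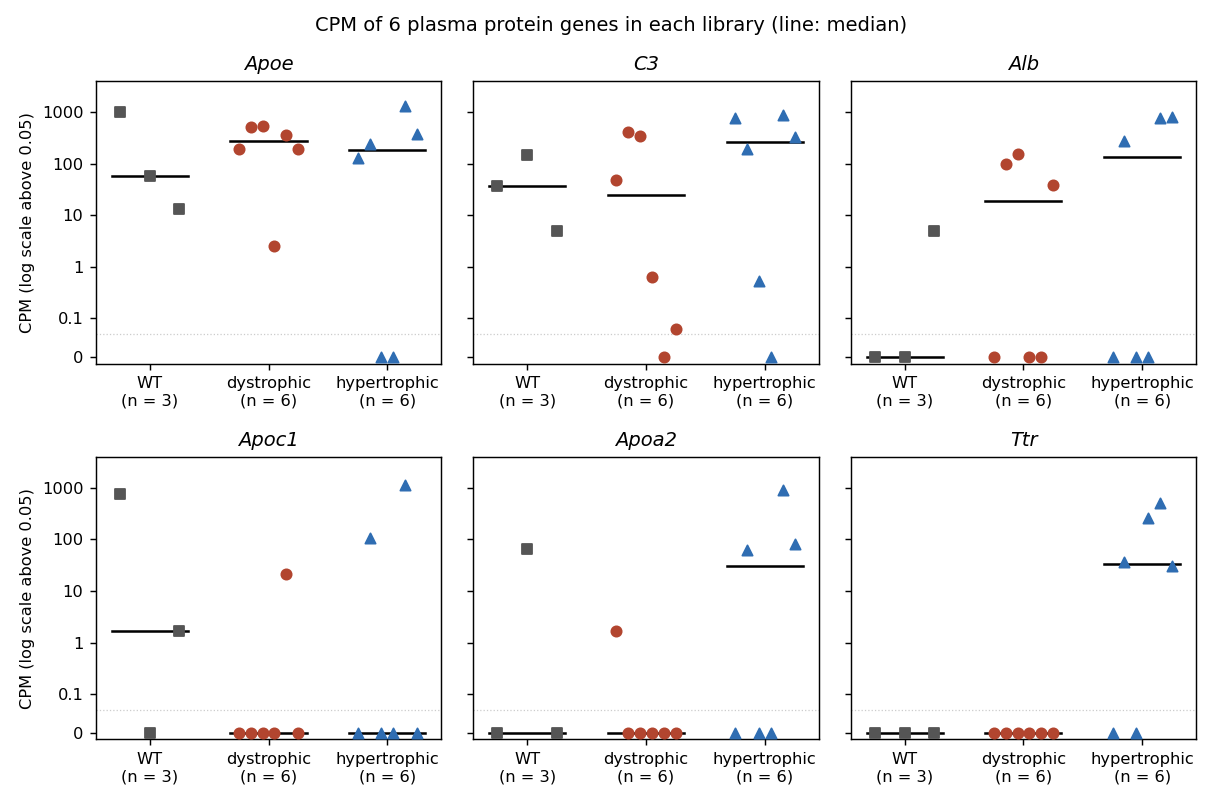
Level of Apoe, C3, Alb, Apoc1, Apoa2 and Ttr in each library, in CPM on an axis that is logarithmic above 0.05 and linear below, by condition (WT n = 3, dystrophic n = 6, hypertrophic n = 6), with a line at the median. Every gene has libraries at 0 in at least 1 condition, and Ttr has counts in 4 hypertrophic-derived libraries and in no other.

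Levels were compared between genes only per kilobase of exon (RPKM), within the 2 libraries that held the most listed genes. In hypertrophic library 6, Alb led with 340.2 RPKM, followed by Apoe with 179, Apoa2 with 148, Hp with 135 and Hpx with 94.8. In hypertrophic library 2, Apoc1 led with 141 RPKM, followed by Alb with 117, Apoa2 with 116 and Apoe with 111. Alb, Apoa2 and Apoe were thus among the 4 highest in both, while Apoc1, the highest in library 2, was at 0 in library 6, and Hp and Hpx, the fourth and the fifth in library 6, were at 0 in library 2. These libraries had 10 listed genes in common.

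By edgeR's quasi-likelihood test no listed gene differed between conditions at an adjusted p under 0.05, while DESeq2, described further on, called 4, 3 and 3. edgeR's quasi-likelihood test was run on the 6887 genes that passed its filter on low counts, which included 10 of the 33 (Alb, Ttr, Rbp4, Hp, Apoa1, Apoa2, Apoc1, Apoe, Fgb and C3), and the other 23 had too few libraries with counts. The test called 0 of the 10 in each of the 3 comparisons, beside 1 of the 6887 genes (0.0145%) for dystrophic against WT, 2 (0.029%) for hypertrophic against WT and 1 (0.0145%) for hypertrophic against dystrophic. At an unadjusted p under 0.05, 0, 0 and 3 of the 10 passed, beside 2.02%, 8.02% and 12% of all genes tested. The 3 were Ttr, Apoa1 and Apoa2, all with the higher level in the hypertrophic-derived libraries. In that direction 39 genes (0.566%) passed at that level. Ttr and Apoa1 had 0 counts in all dystrophic-derived libraries and passed the filter only through hypertrophic-derived ones. No other direction was open to them, so the 3 of 10 cannot be read against the 0.566%. The unadjusted p-values of Ttr, Apoa1 and Apoa2 were 0.00302, 0.00307 and 0.0181 by edgeR's quasi-likelihood test, and their adjusted p-values 0.123, 0.123 and 0.177. With the crossed labels exchanged, 0 of the 10 passed for hypertrophic against dystrophic, beside 4.99% of all genes, and with the 6 libraries left out 1 of the 5 that were then tested (Ttr) passed, beside 4.1%. The standard errors of the named genes were between 1.57 and 6.09 on the log2 scale, and the biological coefficient of variation over all genes was 3.04, so that even large differences in mean level lay within the error of these libraries.

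The direction of the fitted differences is given as a description. The median log2 fold change of the 10 genes was 0.37 for dystrophic against WT, 6.60 for hypertrophic against WT and 3.87 for hypertrophic against dystrophic, beside 1.38, 0.66 and −0.52 over all genes tested. With the crossed labels exchanged these medians were 5.68, 4.73 and 1.86, beside 1.24, 1.13 and −0.12, and with the 6 libraries left out they were 0.41, 2.71 and 2.87 over the 5 genes tested. The 10 genes passed the filter partly through the libraries in which they were high, and Ttr and Apoa1 only through these. The fitted values of genes at 0 in a condition depend on how edgeR treats counts of 0. With those genes set to the bound that counts of 0 allow, or to 0 where there is none, the medians were 0, 1.86 and 3.87. For Apoc1 the fitted value was −5.08 (standard error 2.86, adjusted p = 0.433) for dystrophic against WT and 4.62 (2.64, adjusted p = 0.640) for hypertrophic against dystrophic. Apoa2 had −6.47 (3.40, adjusted p = 0.433) and 8.37 (3.54, adjusted p = 0.177) in the same comparisons, all by edgeR's quasi-likelihood test. The dystrophic-derived libraries were the lower side in these 4 values, and the comparisons share those libraries.

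DESeq2, run as an alternative on the same 6887 genes, called listed genes in all 3 comparisons. For dystrophic against WT it called Fgb, Hp and Rbp4 as higher and Apoa1 as lower, beside 13.5% of all genes, or 13.2% counting only higher ones. For hypertrophic against WT it called Fgb, Hp and Rbp4 as higher, beside 15% of all genes, or 13% counting only higher ones. For hypertrophic against dystrophic it called Ttr, Apoa1 and Apoa2 as higher, beside 3.53% of all genes, or 0.407% counting only higher ones. The direction of Ttr and Apoa1 was again fixed by the filter and their 0 counts in dystrophic-derived libraries. Fgb, Hp and Rbp4 had 0 counts in all WT-derived libraries and were counted in 1, 3 and 1 of the 6 dystrophic-derived libraries. The call on Apoa1 as lower set 1 count in WT library 3 against 0 in the dystrophic-derived libraries. DESeq2 was run with the labels as given only, and its calls rest in part on crossed libraries. Among dystrophic-derived libraries with counts, these were library 6 for Fgb, 5 for Rbp4, and 5 and 6 for Hp. Among hypertrophic-derived ones, they were library 1 for Rbp4, 2 for Fgb, Ttr and Apoa2, and 2 and 3 for Apoa1.

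More of the listed genes were held by hypertrophic-derived libraries alone than by any other condition alone. Of the 24 genes with a count, 23 were counted in some hypertrophic-derived library, 13 in some dystrophic-derived one and 8 in some WT-derived one. Ttr, Fga, Fgg, F2, Kng1, Serpina1a, Ahsg, Vtn and Mup3 were counted in hypertrophic-derived libraries and in no other condition, which is 37.5% of the 24, beside 946 of all 13281 genes with a count (7.12%). In dystrophic-derived libraries alone there was 1 gene (4.17%, beside 23.9% of all genes) and in WT-derived libraries alone there was none (beside 2.28%). The pattern depended on the labels of the 6 crossed libraries. With these labels exchanged, Gc, Trf, Fgg and F2 were the genes held by hypertrophic-derived libraries alone (16.7%, beside 18.9% of all genes), and Itih3, Vtn and Mup3 those held by dystrophic-derived libraries alone (12.5%, beside 9.52%). With the 6 libraries left out, hypertrophic-derived libraries alone held 12 of 22 genes (54.5%, beside 10.1% of all genes).

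Many zeros of the listed genes fell in libraries deep enough to count them at the level seen elsewhere. A gene was taken as measurable in a library where the other libraries that held it gave at least 10 expected counts at the depth of that library. Of 320 such pairs of a listed gene and a library, 241 (75.3%) were at 0, and where at least 30 counts were expected, 74.0% were. The share over all genes with a count was 67.1% at the lower limit and 63.5% at the higher one. The expectation leaves out the libraries at 0 and takes no account of differences between the pooled samples or of amplification, so the shares are a description without a test. Apoe and C3 were at 0 in 4 of their 28 pairs (14.3%), and the other listed genes in 81.2%.

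Other genes of the liver were each counted in some of the same libraries or in none, and which cells their RNA came from was not tested. Of 70 further genes of secreted liver proteins, 27 were counted anywhere, beside 13281 of all 43472 symbols. The most widely counted were the clotting factors F10 (10 libraries) and F5 (9) and the complement inhibitor Serping1 (9). Per library, 0, 8 and 4 of the 70 were counted in WT-derived, 2 to 10 (median 4) in dystrophic-derived and 0 to 18 (median 3.5) in hypertrophic-derived libraries, and hypertrophic library 6 again held the most. Hypertrophic library 5, with 9 of the 33 listed genes, held 1 of these 70, and dystrophic library 5, with 5 of the 33, held 10. Of the 70, 8 passed the filter, and edgeR called 0 of them in each comparison, with 0, 1 and 1 at an unadjusted p under 0.05, the last 2 lower in hypertrophic-derived libraries.

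Genes of enzymes, receptors and regulators that stay inside hepatocytes were counted in a similar share. The source of their RNA was not tested either. Of 30 such genes, 11 (36.7%) were counted in at least 1 library, beside 27 of the 70 (38.6%) and 13281 of all 43472 symbols. The most widely counted were Arg1 of the urea cycle and Pck1 of gluconeogenesis (4 libraries each). The regulator Hnf4a, the receptors Asgr1 and Asgr2, and Cps1, Fabp1 and Tat were among the 19 at 0 in all libraries. Their summed level was 0, 235 and 1.66 CPM in WT-derived libraries, 0 to 186 CPM in dystrophic-derived and 0 to 212 CPM in hypertrophic-derived ones, which overlapped fully. edgeR called 0 of the 4 that were tested in each comparison, with 0, 1 and 1 at an unadjusted p under 0.05. Hypertrophic library 6 held 6 of the 30 and library 2 held 3, while hypertrophic library 5, which had the highest level of the listed genes, held none. In these bulk libraries, fewer vesicles or cells of a source and less RNA in each cannot be told apart.

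Markers of other cells that make Apoe or C3 were counted beside them. Of 12 macrophage and monocyte genes, 11 were counted in some library, with only the Kupffer cell gene Clec4f at 0 throughout. Their summed level was 698, 1050.1 and 201 CPM in WT-derived, 592 to 2298 CPM in dystrophic-derived and 1048 to 3432 CPM in hypertrophic-derived libraries. Lyz2, which neutrophils also express, ranged from 201 to 3432 CPM and was at 0 in no library. In dystrophic library 4 and hypertrophic library 4, which had the highest sums, these came from Lyz2 alone, and the other 11 markers in the files were at 0. Without Lyz2 the sum was 0 in 7 of the 15 libraries, and at most 383 CPM, in hypertrophic library 6. Apoe in these 7 was at 1326 CPM in hypertrophic library 5, 992 CPM in WT library 1 and 548 CPM in dystrophic library 3. It was at 13.3 CPM in WT library 3, 2.49 CPM in dystrophic library 4 and 0 in hypertrophic libraries 3 and 4. In the libraries that held other markers, Apoe lay between 57.1 and 516 CPM. A count of 0 in WT library 1 still allows 110 CPM per gene. Of 8 adipocyte genes, 4 were counted, and Fabp4, which is also found in endothelial cells and macrophages, had counts in 13 libraries, while Adipoq and Lep had none. Enterocytes make apolipoproteins too, and 4 of 10 enterocyte genes were counted, each in 1 or 2 libraries. The part of these cells in the levels of the listed genes was not tested.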

How the data were processed

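EV RNA of 15 libraries from mouse blood was analysed, grouped by the sample labels into WT, dystrophic and hypertrophic. Per the study's methods and the labels' processing notes, the authors aligned single reads of 50 bases with TopHat 2.0.2 to mm10 and used HTSeq and DESeq. The deposited values are raw counts per gene symbol, without normalization or filter. The 5 summary lines of each table, which held 57.9% to 99.2% of its numbers and name no gene, were dropped from depths and fits. The labels and the methods also name different library kits, and strandedness of the counting is not given in the sources used here.

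CPM was the count scaled to the reads on gene symbols of the library, and a gene was detected with at least 1 count. edgeR 4.0.16 (R 4.3.3, limma 3.58.1; TMM, filterByExpr, quasi-likelihood fit to all libraries, no covariate, Benjamini-Hochberg adjusted p under 0.05 over all 6887 genes tested) was the test, and standard errors came from its F statistic. It was checked on simulated counts, but their spread was far below the biological coefficient of variation of 3.04 found here. The check therefore does not cover libraries that vary as these do. Alternatives were DESeq2 1.42.0, no TMM, other filters, fewer conditions or genes, the exchanged or omitted crossed libraries, and leaving out each library. Positions, transcripts and exonic lengths came from GENCODE M21. Values were given in every library for genes counted in at least 5, and fold changes for the 6 tested genes counted in the most libraries (ties by higher mean CPM). The listed genes, the other gene lists and these rules were chosen with earlier results of these data known. The labels name no separate animals for the samples, and libraries of a condition may share mice. The p-values therefore measure the spread between these samples only. Some genes of the wider lists, and a promoter motif, are not reported here.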

Additional observations from a re-analysis of the deposited data

Results flagged for a closer look

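Among 14 sets of values from 6 libraries of a condition, 6 had a highest library whose gap to the next exceeded Dixon's 95% limit, where chance flags about 1 in 20 sets of normally distributed values. These levels are skewed and hold many zeros, so more flags arise, and a set with a single library above 0 is flagged by construction. Of these, 4 belonged to hypertrophic library 5, which had 328710 reads on genes. Its summed level of the 33 genes was 7207 CPM, beside 2627 CPM in the next library of the condition. Apoe was at 1326 CPM there (next 382 CPM), Apoc1 at 1141 CPM (next 105 CPM) and Apoa2 at 907 CPM (next 79.7 CPM). In dystrophic-derived libraries, Apoc1 stood apart at 21.5 CPM in library 5 and Apoa2 at 1.71 CPM in library 1, the other 5 libraries being at 0 in each case, and the value of Apoa2 rested on 2 counts.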

How the results depend on the processing

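No paired analysis was possible because the labels carry no replicate numbers that could pair samples across conditions. In the order dystrophic against WT, hypertrophic against WT and hypertrophic against dystrophic, the genes called at an adjusted p under 0.05 numbered 1, 2 and 1. They numbered 933, 1031 and 243 with DESeq2, which also called 4, 3 and 3 of the listed genes in place of 0, and 0 in each comparison with no filter beyond 1 count or without mitochondrial and hemoglobin genes. With at least 10 counts in 1 library they were 1 for hypertrophic against WT and 0 for hypertrophic against dystrophic. Without TMM, with crossed labels exchanged and with the crossed libraries left out, dystrophic against WT gave 3, 2 and 3, and the latter 2 gave 0 for hypertrophic against dystrophic. Leaving out each library in turn gave 1 to 2, 1 to 3 and 0 to 2 genes and 0 listed genes.

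The log2 fold change of Apoe turned to −0.18 without TMM and −0.045 with exchanged labels for dystrophic against WT. For hypertrophic against dystrophic it turned to 0.0035 with DESeq2, 0.19 without TMM, 0.44 with exchanged labels and 0.18 with the crossed libraries left out, and that of C3 turned to −0.89 with exchanged labels. The cause was not tested. Over the fits without 1 library, Apoe ranged from −0.26 to 2.70, −0.49 to 2.51 and −0.77 to 0.082 in the 3 comparisons. For dystrophic against WT, C3 ranged from −0.37 to 2.76, Apoc1 from −11.68 to 2.28 and Apoa2 from −9.99 to 3.29, and for hypertrophic against WT Apoc1 ranged from −2.70 to 6.88. Of these changes of sign, no call was lost, since none of these genes was called. DESeq2 called Apoa2 (9.32) and Ttr (10.75) for hypertrophic against dystrophic.

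The median summed level of the listed genes in dystrophic-derived libraries was 1025 CPM with exchanged labels and 1033 CPM with the crossed libraries left out, in place of 419 CPM. In hypertrophic-derived libraries it was 419 and 2627 CPM in place of 1187 CPM, so that exchanged labels turned the order of these conditions. Without 1 library, the medians ranged from 151 to 1036 CPM in WT-derived, 355 to 483 CPM in dystrophic-derived and 1016 to 1357 CPM in hypertrophic-derived libraries, and the median number of listed genes from 3 to 5, from 4 to 4 and from 5 to 9. The 27227 reads of WT library 1 limit every comparison with WT.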
